A study of Homo sapiens with 4 samples.

Results

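The expression of 10 genes of the Notch pathway was examined in human mammary epithelial cells with and without a shRNA against PAK1, a Rac and Cdc42 activated kinase. The genes were the receptors NOTCH1, NOTCH2, NOTCH3 and NOTCH4, the ligands JAG1, JAG2 and DLL1, and the target genes HES1, HEY1 and HEY2. They were taken by name from the array, which carried 27193 gene names, and they were represented by 12 probes and 30 spots on each array. The cells were MCF10A.B2, a derivative of the non-tumorigenic breast epithelial line MCF10A with a form of Her2 (ErbB2) that the crosslinker AP1510 activates. The control group (2 arrays) was labelled control and Pak1 wild type, and the PAK1 shRNA group (2 arrays) carried a shRNA targeting Pak1, which the series describes as stably expressed and Tet inducible. Both groups were grown in DMEM/F12 with 5% horse serum, starved of serum for 3 h and given AP1510 for 15 min, so no array shows these genes without Her2 activation. The methods name wild type cells of the line beside those with the shRNA, no array of a non-targeting shRNA was analysed, and 1 shRNA was used. The series text also speaks of cells from tumors, whereas the sample labels and the methods name the cell line. How the samples of a group were obtained is not stated, so p-values measure only the spread between these samples, which may be technical.

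Notch receptors are single pass membrane proteins that are activated by ligands of the Jagged and Delta-like families on a neighboring cell. Binding leads to cleavage of the receptor by ADAM metalloproteases and then by gamma-secretase, and the released intracellular domain enters the nucleus. There it joins the DNA binding protein RBPJ and Mastermind-like coactivators and turns on genes such as HES1, HEY1 and NRARP. In the mammary gland the pathway is known for its part in the choice between luminal and basal cell fate.

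RBPJ binds a short motif, and the promoter of HES1 is a textbook example. GTGGGAA was searched on both strands of the RefSeq promoter windows (GRCh38.p14), each from 250 bases before to 50 bases after a start site. It was present in 6.25% of 35116 windows, and the shorter core TGGGAA, which lies within it, in 24.0%. Of the 10 genes, 8 had a window, and HES1 and HEY2 held the motif. DLL1 and HEY1 had no entry. Of the 62 other pathway genes listed by role, 52 had a window and 7 held the motif, namely HES4, HES5, HEYL, RBPJ, RBPJL, CTBP2 and SPEN. The 100 bases upstream of the start are shown for 3 HES genes that share the motif at nearly the same place. HES1 and HES4 differed in the arrays, and HES5 was near the detection limit. The bases run 5′ to 3′ on the strand of the gene, with the match in capitals. They lie at chr3:194136048-194136147 (plus strand) for HES1, chr1:1000098-1000197 (minus strand) for HES4 and chr1:2530264-2530363 (minus strand) for HES5.
HES1: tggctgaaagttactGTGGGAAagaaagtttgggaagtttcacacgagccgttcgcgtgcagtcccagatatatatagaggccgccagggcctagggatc
HES4: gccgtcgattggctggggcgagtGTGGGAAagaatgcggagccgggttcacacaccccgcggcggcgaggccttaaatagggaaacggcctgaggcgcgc
HES5: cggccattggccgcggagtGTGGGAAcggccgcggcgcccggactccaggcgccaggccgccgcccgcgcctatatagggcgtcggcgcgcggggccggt
The first base of the match lay 85 bases before the start in HES1, 77 bases before it in HES4 and 81 bases before it in HES5. A match describes these letters only, and binding was not measured.

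**Figure D1:**
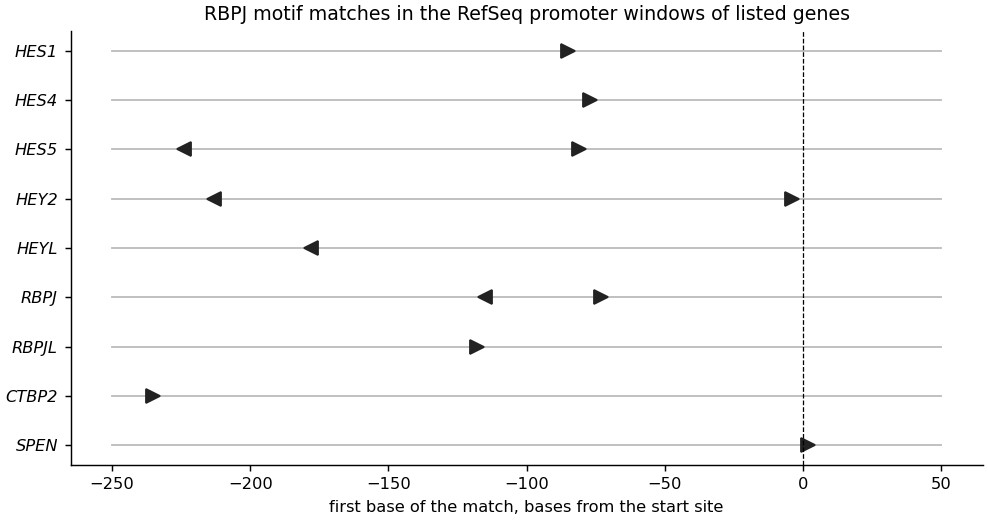
Positions of the GTGGGAA motif in the RefSeq windows of the 9 listed genes that hold it. The horizontal axis gives the first base of the match in bases from the start site, from 250 before to 50 after, and the arrowhead points along the strand of the match; HES1, HES4 and HES5 each have a match on the gene's strand between 77 and 85 bases before the start.

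Each sample was labelled with Cy3 and hybridized to an Agilent 1-color array, and all 4 arrays lay on 1 slide. Between 78.9% and 83.2% of 34127 probes were well above background on an array, and arrays of the same group correlated at 0.998 across probes. Levels are given as log2 intensity after background correction and quantile normalization. A level is comparable between arrays for 1 probe, and not between probes. Control arrays were brighter before normalization, with a median scanner intensity of 501 and 384 against 326 and 319 for PAK1 shRNA. PAK1 itself had log2 intensities of 11.19 and 11.27 in control cells and 10.44 and 10.51 in PAK1 shRNA cells. Its level in PAK1 shRNA cells was 59.2% of the control (log2 fold change -0.76, SE 0.08, adjusted p = 0.000184 by limma). All 8 basal epithelial markers were well above background on all 4 arrays, with KRT5 at -1.20 and TP63 at -1.13 on the log2 fold change scale. Of the other marker lists, luminal epithelial had 6 of 7 above background on all arrays (PGR on none), leukocyte 6 of 6, endothelial 4 of 6 (CLDN5 on none) and fibroblast 2 of 6 (COL1A2, COL3A1 and PDGFRA on none). Summed linear levels of the 6 leukocyte markers, with flagged spots kept so that every marker counts on every array, were 19400 to 20300 in control cells and 51100 to 56900 in PAK1 shRNA cells. CD14 made up most of this sum, CD68 was at a log2 fold change of 3.75 and PTPRC at 0.12. The fibroblast sums, also with flagged spots kept, were 757 to 873 in control cells and 1270 to 1340 in PAK1 shRNA cells. The part of these lists in the results below was not tested. In RNA from a whole culture, fewer cells of a type and less RNA per cell cannot be told apart.

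With the shRNA, most of the Notch genes measured were lower. Of the 9 genes bright enough to test, NOTCH2, NOTCH3, NOTCH4, JAG2, DLL1 and HES1 were lower, JAG1 and HEY1 were higher, and NOTCH1 did not pass the test. The background in this comparison was high, because 62.5% of the 21990 genes tested passed an adjusted p of 0.05 (limma with Benjamini-Hochberg adjustment), 30.6% as higher and 32.0% as lower. The groups did not overlap in 8 of the 9 genes, against 78.0% of all genes tested. Lower by at least 2-fold were 5 of the 9 genes (NOTCH3, NOTCH4, JAG2, DLL1 and HES1), and the share of all genes was 9.09%. None of the 9 was higher by at least 2-fold, where the share of all genes was 8.80%. The 9 genes had a median log2 fold change of -1.38, and all genes tested one of 0.02. The members were chosen with results of these arrays known, so these counts and medians are descriptions. For 1 gene, the smallest p that an exact permutation over 2 and 2 arrays allows is 0.333 (two-sided).

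**Figure D2:**
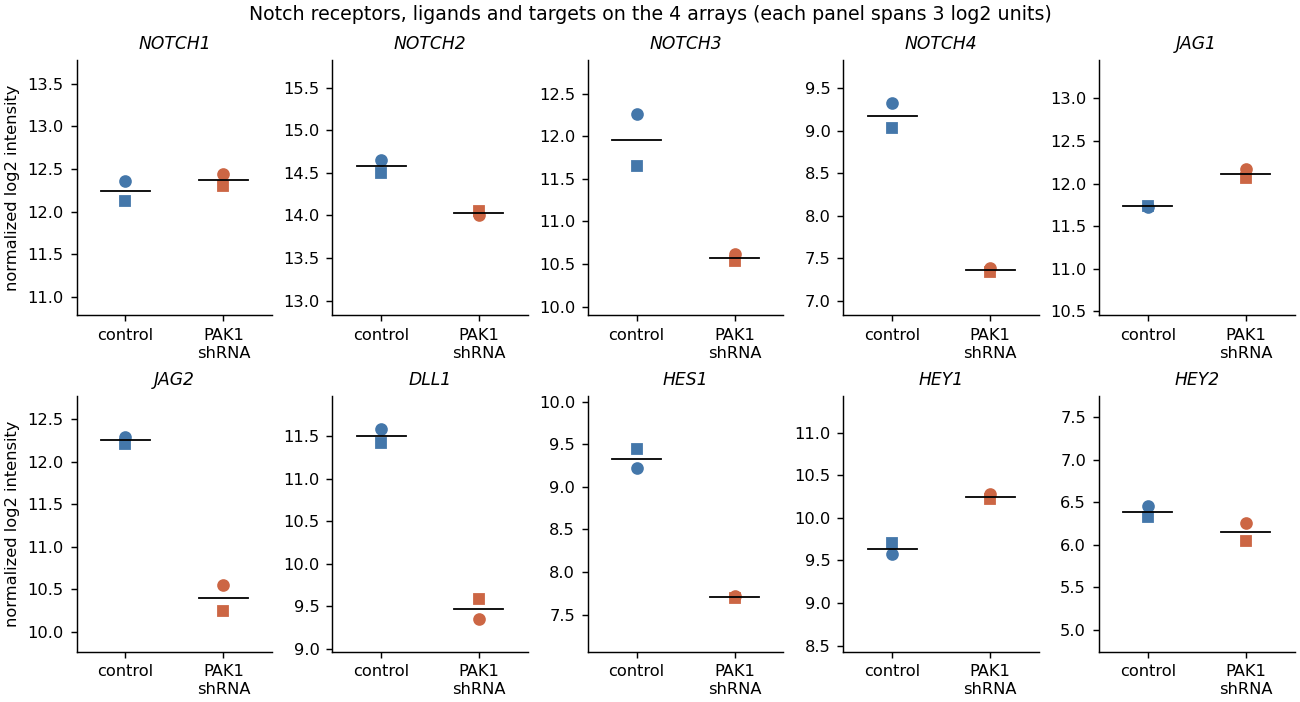
Normalized log2 intensity (vertical axis) of the 10 genes in control (blue) and PAK1 shRNA (red) cells, with circles for replicate 1, squares for replicate 2 and a line at the mean of each group. Each panel spans 3 log2 units, and the groups are apart by more than 1 unit in NOTCH3, NOTCH4, JAG2, DLL1 and HES1.

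Among the receptors, NOTCH1 differed least. Its brighter probe (hg19 chr9:139390523-139390582) read 12.36 and 12.12 in control cells and 12.44 and 12.30 in PAK1 shRNA cells. The groups overlapped, since the first control array lay between both PAK1 shRNA arrays. The log2 fold change was 0.13 (SE 0.10, adjusted p = 0.331), with a 95% interval from -0.12 to 0.38. A further NOTCH1 probe (chr9:139389764-139389823), printed 10 times on each array, had mean log2 intensities of 11.41 and 11.20 in control cells and 11.41 and 11.25 in PAK1 shRNA cells. Its spots varied with an SD of 0.12 to 0.15 within an array, and its log2 fold change was 0.02 (adjusted p = 0.85 in the fit across probes). Both probes therefore gave the same call.

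NOTCH2 gave opposite results with its probes, which target different transcripts. The brighter probe, designed for transcript variant 1 (NM_024408, chr1:120454858-120454917), read 14.65 and 14.50 in control cells and 14.00 and 14.05 in PAK1 shRNA cells. By this probe NOTCH2 was at 68.4% of the control level (log2 fold change -0.55, SE 0.08, adjusted p = 0.00125), with no overlap between the groups. The probe for the shorter transcript variant 2 (NM_001200001, chr1:120539807-120539866) read 13.00 and 12.83 in control cells and 13.64 and 13.65 in PAK1 shRNA cells, a log2 fold change of 0.73 (SE 0.09, adjusted p = 0.000281 in the fit across probes). The array's annotation also assigns that probe to NOTCH2NL, a partial copy of the start of NOTCH2, so its reading cannot be given to NOTCH2 alone. The brighter probe of NOTCH2NL itself, looked up after these values were seen, read 14.31 and 14.22 in control cells and 14.89 and 15.01 in PAK1 shRNA cells, a log2 fold change of 0.68 (adjusted p = 0.000301 in the fit across probes). With the mean over both NOTCH2 probes the log2 fold change was 0.09 (adjusted p = 0.38), so the call for NOTCH2 holds for the variant 1 probe only.

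NOTCH3 and NOTCH4 fell further. NOTCH3, a receptor best known from vascular smooth muscle and also used by luminal progenitors in the breast, read 12.26 and 11.65 in control cells and 10.62 and 10.53 in PAK1 shRNA cells (chr19:15270489-15270548). The control arrays were further apart than for any other member tested, with an SD of 0.43, and both still lay above both PAK1 shRNA arrays. NOTCH3 was at 38.5% of the control level (log2 fold change -1.38, SE 0.19, 95% interval -1.82 to -0.93, adjusted p = 0.000713). Its log2 fold change was -1.08 without the first control array and -1.69 without the other.

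NOTCH4, a receptor best known from endothelial cells and from mouse mammary tumors, read 9.32 and 9.03 in control cells and 7.39 and 7.34 in PAK1 shRNA cells (chr6:32162624-32162683). It was at 28.5% of the control level (log2 fold change -1.81, SE 0.11, adjusted p = 1.9e-05), and its scanner intensities of 847 and 536 fell to 142 and 128. With the background model fitted on all spots of an array the log2 fold change was -1.16, and the call was the same. Among the endothelial markers PECAM1 read 8.72 and 8.87 in control cells and 7.24 on both PAK1 shRNA arrays, a log2 fold change of -1.56. The others did not move one way, with VWF at 0.37 (adjusted p = 0.00432) and TEK at -0.33. TEK read 6.43 and 6.44 in control cells and 6.09 and 6.11 in PAK1 shRNA cells. It was not well above background on either PAK1 shRNA array and entered the test through the control arrays alone. CDH5 was at 0.15 (adjusted p = 0.131), and KDR at 0.14 with the first PAK1 shRNA array missing. CLDN5 was not above background on any array. The summed linear level of all 6 endothelial markers, with flagged spots kept, was 1210 to 1240 in control cells and 991 to 1020 in PAK1 shRNA cells. Their part in the NOTCH4 result was not tested.

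Of the ligands, JAG2 and DLL1 fell and JAG1 rose. DLL1, a Delta-like ligand found on basal cells of the mammary gland, read 11.59 and 11.42 in control cells and 9.35 and 9.59 in PAK1 shRNA cells (chr6:170591642-170591701). It had the most negative change of the 9 genes, at 24.4% of the control level (log2 fold change -2.04, SE 0.11, 95% interval -2.30 to -1.78, adjusted p = 1.18e-05). Its scanner intensities, before any normalization, were 4128 and 2871 for control against 541 and 634 for PAK1 shRNA.

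JAG2, a Jagged ligand, was measured by a probe printed 10 times on each array (chr14:105608674-105608733). The mean of its spots was 12.29 and 12.21 in control cells and 10.55 and 10.25 in PAK1 shRNA cells. The spots of an array had an SD of 0.20 to 0.23, and 1 of the 10 spots on the first control array was set aside for its scanner flag. The lowest control spot read 11.86 and the highest PAK1 shRNA spot 10.75, so no spot of the groups overlapped. JAG2 was at 27.8% of the control level (log2 fold change -1.85, SE 0.11, adjusted p = 2.03e-05). Spots of 1 array repeat the same RNA and are not samples.

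**Figure D3:**
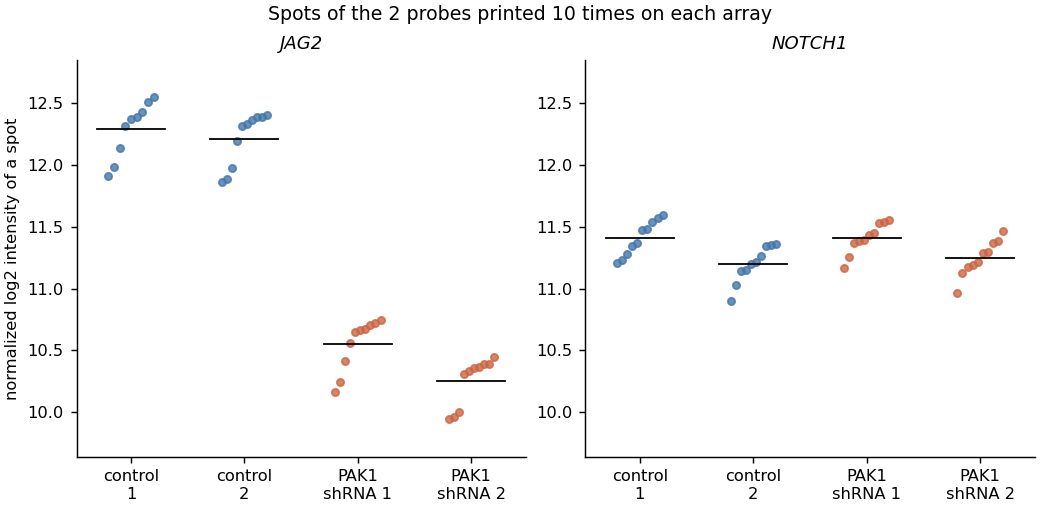
Normalized log2 intensity (vertical axis) of each spot of the JAG2 and NOTCH1 probes printed 10 times, by array, in order of their value within an array, with a line at the mean. JAG2 spots lie between 11.86 and 12.55 in control cells and between 9.94 and 10.75 in PAK1 shRNA cells, whereas NOTCH1 spots cover 10.90 to 11.60 and 10.97 to 11.56.

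JAG1, the other Jagged ligand, moved the opposite way and less. It read 11.73 and 11.74 in control cells and 12.17 and 12.06 in PAK1 shRNA cells (chr20:10619061-10619120), without overlap. JAG1 was at 130% of the control level (log2 fold change 0.38, SE 0.08, 95% interval 0.19 to 0.56, adjusted p = 0.00472). Before normalization its scanner intensities did not separate the groups, with 4580 and 3587 in control cells and 3860 and 3567 in PAK1 shRNA cells, so the rise is relative to the other genes of each array. Under the alternative settings JAG1 stayed between 0.30 and 0.43 and kept its call, except that it does not reach 2-fold.

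The target genes were divided. HES1, a bHLH repressor and the classic Notch target, read 9.22 and 9.44 in control cells and 7.72 and 7.69 in PAK1 shRNA cells. Both PAK1 shRNA arrays were below both control arrays, at 32.5% of the control level (log2 fold change -1.62, SE 0.09, 95% interval -1.85 to -1.40, adjusted p = 1.64e-05). Its probe is placed at chr3:193854276-193854463 in hg19, a span of 188 bases. Fitting the background model on all spots gave -1.08 with the same call.

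HEY1, a related bHLH repressor, read 9.58 and 9.70 in control cells and 10.28 and 10.22 in PAK1 shRNA cells. It was at 153% of the control level (log2 fold change 0.61, SE 0.08, 95% interval 0.42 to 0.80, adjusted p = 0.000622). Its scanner intensities overlapped, with 1006 and 856 in control cells against 1028 and 978 in PAK1 shRNA cells, so this rise too is relative to the other genes. HEY2, the third of these repressors, was well above background on 1 of the 4 arrays, the first control array (chr6:126082004-126082063). It read 6.45, 6.33, 6.25 and 6.04 in the order control 1, control 2, PAK1 shRNA 1 and PAK1 shRNA 2, and it was not tested. Without the filter on dim probes its log2 fold change was -0.25 (adjusted p = 0.0826), and the control and PAK1 shRNA values, though not overlapping, lay near the lowest signal that counts as above background.

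**Figure D4:**
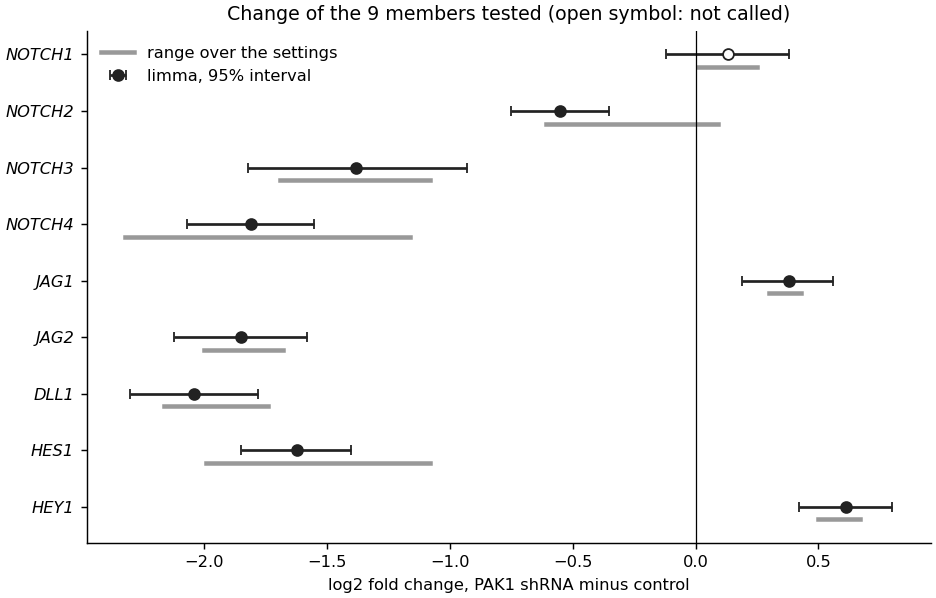
Log2 fold change of PAK1 shRNA over control cells (horizontal axis) for the 9 genes tested, as the limma estimate with its 95% interval in black and the range over the alternative settings in gray. Of the 8 genes called, NOTCH2 alone has a range that crosses 0, at 0.09 with the mean over its probes, and the NOTCH1 interval includes 0.

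The rest of the pathway was read from a list of 62 genes arranged by role, of which 60 were tested. It did not move one way, with 24 genes higher, 17 lower and 19 not called, and a median log2 fold change of 0.12. The share called was 68.3%, near the 62.5% of all genes. Of the 60 genes tested, 11 were called higher and 7 lower by at least 2-fold. The shares of all genes tested were 8.80% higher and 9.09% lower.

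NRARP, listed as a further target, fell, while none of the other HES and HEY factors was called lower by its brightest probe. These factors were listed as family members and not as targets, and the other listed target, DTX1, was not tested. NRARP, a small ankyrin repeat protein that is induced by Notch and dampens it, read 12.56 and 12.55 in control cells and 8.32 and 8.36 in PAK1 shRNA cells. NRARP was at 5.38% of the control level (log2 fold change -4.22, SE 0.07, adjusted p = 3.22e-07). A dim further NRARP probe, well above background on the first control array only and not tested, was at -0.14. Its promoter window held no GTGGGAA. By the brightest probe of each, 3 of the 7 other HES and HEY factors tested were higher, 0 were lower and 4 were not called. The share called was 42.9%, beside 62.5% of all genes in either direction and 30.6% as higher.

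HES4, whose upstream motif is shown above, read 16.49 and 16.36 in control cells and 17.42 and 17.76 in PAK1 shRNA cells, a log2 fold change of 1.17 (SE 0.12, adjusted p = 0.000224). HES7, known from the somite clock, read 7.77 and 7.81 in control cells and 10.49 and 10.53 in PAK1 shRNA cells, a log2 fold change of 2.72 (adjusted p = 9.49e-07). HES5, which carries the same motif, was near the detection limit, with 6.62 and 6.65 in control cells and 6.62 and 6.73 in PAK1 shRNA cells. HES5 had a log2 fold change of 0.04 (adjusted p = 0.668), with a 95% interval from -0.14 to 0.23. HES1, HES4 and HES5 thus share an upstream match and had log2 fold changes of -1.62, 1.17 and 0.04. HEYL, also dim, was at 0.04 (95% interval -0.18 to 0.26, adjusted p = 0.748). With median centring in place of quantile normalization, which raised the median of all genes to 0.14, HES5 was at 0.32 and HEYL at 0.34, and both were then called. The third higher factor, HES6, named here after its values were seen, was at 0.26 by its brightest probe (adjusted p = 0.0237). Its other probes were lower, at -1.55, -0.57 and -0.31 (adjusted p = 1.34e-05, 0.00201 and 0.0265 in the fit across probes). The call of HES6 as higher therefore holds for the brightest probe only.

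In the nuclear complex 2 of 9 genes were higher and 3 lower, a share called (55.6%) near that of all genes (62.5%). RBPJ itself read 11.87 and 11.90 in control cells and 11.96 and 11.98 in PAK1 shRNA cells. The RBPJ log2 fold change of 0.09 did not pass the test (adjusted p = 0.335), with a 95% interval from -0.09 to 0.26. Of the corepressors, 3 of 11 were higher and 5 lower (72.7% called). TLE4, a Groucho corepressor that HES factors recruit, rose by 1.99 (SE 0.08, adjusted p = 3.54e-06), from 10.57 and 10.55 to 12.49 and 12.60. Its relative TLE3 had the opposite sign, with 9.12 on the first control array and 7.34 and 7.25 on the PAK1 shRNA arrays (log2 fold change -1.82, adjusted p = 3.82e-05). The second control array was left out of the TLE3 fit for a flagged spot, and the control group is then 1 array.

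Genes of receptor cleavage were mostly higher, with 7 of 9 higher, 0 lower and a median log2 fold change of 0.95. The range over these genes was -0.19 to 1.89. Examples, named after their values were seen, were the metalloproteases ADAM10 at 1.54 (adjusted p = 1.01e-05) and ADAM17 at 1.01 with the second control array missing, and the gamma-secretase subunits NCSTN at 0.95 and APH1B at 1.89. The percentage called in this role was 77.8%, all as higher, beside 62.5% of all genes in either direction and 30.6% as higher.

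Glycosylation of the receptors decides which ligands they answer to. Of 5 genes for it, 3 were lower and 0 higher. The 60% called, all as lower, is near the 62.5% of all genes called in either direction, and 32.0% of all genes were lower. The Fringe glycosyltransferases MFNG and RFNG were at -0.69 (SE 0.11, adjusted p = 0.0013) and -0.52 (SE 0.07, adjusted p = 0.000757) on the log2 fold change scale. LFNG, the third Fringe, depended on the probe. The probe with the highest mean read 9.31 and 9.47 in control cells and 9.53 and 9.55 in PAK1 shRNA cells (log2 fold change 0.15, adjusted p = 0.154). The other LFNG probe, designed for another transcript, read 11.17 and 11.03 in control cells and 7.68 and 7.65 in PAK1 shRNA cells (log2 fold change -3.44, adjusted p = 3.15e-07 in the fit across probes). As the mean over its probes LFNG was at -1.64 (adjusted p = 2.19e-05).

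Genes of ubiquitination and endocytosis were higher in 7 and lower in 3 of 14 (71.4% called, beside 62.5% of all genes). NEURL1B, a ubiquitin ligase of the Neuralized family that acts on Notch ligands, read 12.49 and 12.39 in control cells and 7.93 and 7.94 in PAK1 shRNA cells. This was 4.40% of the control level (log2 fold change -4.51, SE 0.08, adjusted p = 3.22e-07), the most negative change in the list. A dimmer NEURL1B probe was at -0.16 (adjusted p = 0.195 in the fit across probes), and the mean over both probes was at -2.33. DTX3L, a Deltex type ubiquitin ligase that pairs with PARP9, read 9.64 and 9.60 in control cells and 11.96 and 11.97 in PAK1 shRNA cells (log2 fold change 2.34, adjusted p = 1.56e-06).

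The remaining ligands were few. DLL3, a Delta-like protein that inhibits Notch within the same cell, read 9.84 and 10.02 in control cells and 8.93 and 8.67 in PAK1 shRNA cells (log2 fold change -1.13, SE 0.11, adjusted p = 0.000172). DLL4, the endothelial Delta-like ligand, was not bright enough in either group to be tested. Of the 3 non-canonical ligands, DNER rose from 7.65 and 7.71 to 11.08 and 11.31, a log2 fold change of 3.51 (SE 0.09, adjusted p = 1.04e-06). DLK2, a relative of Delta that lacks the domain for canonical activation, read 14.84 and 14.59 in control cells and 12.98 and 12.65 in PAK1 shRNA cells (log2 fold change -1.90, SE 0.14, adjusted p = 4.01e-05). Among 13 of the other pathway genes with several tested probes, the probes differed in direction in 3, namely LFNG, DLK1 and HES6.

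**Figure D5:**
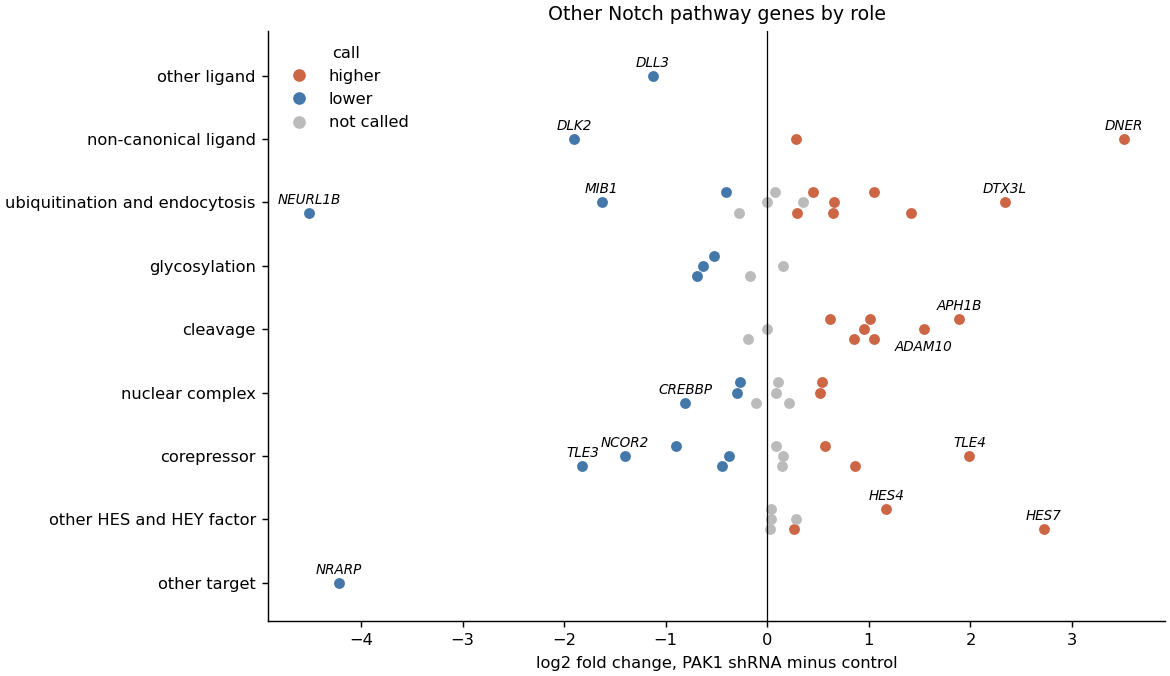
Log2 fold change of PAK1 shRNA over control cells (horizontal axis) for the 60 other pathway genes tested, in rows by role, with each point a gene and its color the limma call. Cleavage genes lie mostly above 0 with a median of 0.95, while NRARP and NEURL1B lie below -4 and DNER above 3.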

How the data were processed

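Total RNA of 2 control and 2 PAK1 shRNA samples of MCF10A.B2 cells was measured on Agilent 1-color arrays, and the groups were taken from the sample labels. Spot intensities, deposited as Agilent Feature Extraction (9.5.3.1 in the scanner files) gave them, come with a local background and are not normalized between arrays. A deposited table of log2 values, whose exact processing is not given in the sources used here, served as an alternative. The methods name normexp, quantile normalization and limma.

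Here the mean spot intensities were background corrected with normexp (offset 50), fitted on each array without spots flagged for their background. Those spots moved the fitted background mean of the control arrays to -666 and -740, against -9.19 and -12.1 without them, and several Notch genes are dim. Control and flagged spots were left out, arrays were quantile normalized, and repeat spots were averaged by probe. A probe entered if both arrays of 1 group or the other were well above background, and each gene was represented by its brightest probe. limma 3.58.1 (lmFit, eBayes; R 4.3.3) tested all 21990 genes, and Benjamini-Hochberg adjusted p-values under 0.05 were called. Single probes were tested in a like fit across all probes. The number of arrays limits the precision. All arrays lay on 1 slide, so no slide block could be fitted.

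The Notch genes, the lists and the rule for named genes were chosen with earlier results of these data known. The rule took PAK1, the 10 genes with all their probes, DLL3, DLL4, HES4, HES5, HEYL, NRARP, RBPJ, LFNG, MFNG and RFNG, and the 4 largest rises and 4 largest falls of the other pathway list. That list was counted by role, and 1 of its genes (NEURL1) was matched through an older symbol. The scanner files give probe coordinates in hg19. Promoter sequences and their coordinates are from RefSeq (GRCh38.p14). The tests were checked on simulated data. In 20 alternatives the background correction, the normalization and signal column, the filter, flags and probe rule, and the test with its threshold and replicate block were changed, or 1 array was left out.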

Additional observations from a re-analysis of the deposited data

How the results depend on the processing

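The counts of Notch genes, 2 higher and 6 lower, were the same under each background correction, normalization, filter and flag setting, and with any 1 array left out. Exceptions were an unpaired t-test, which the study names for its statistics in general and not for the arrays (2 higher, 4 lower, with NOTCH2 at an adjusted p of 0.0509 and NOTCH3 at 0.088), the mean over probes (5 lower, without NOTCH2), the authors' log2 table, to which the filter on dim probes was not applied (7 lower, with HEY2 at -0.31, adjusted p = 0.0105), and the 2-fold threshold (5 lower). By the unpaired t-test 4138 genes were higher, 4520 lower and 15 other pathway genes higher. At a change of at least 2-fold 1936 genes (8.80%) were higher and 1999 (9.09%) lower, with 0 Notch genes higher. Of 60 other pathway genes, 11 were then higher and 7 lower. HES4, MFNG and TLE3 also lost their call by the unpaired t-test (adjusted p = 0.0551, 0.0779 and 0.0606). The direction turned for NOTCH2 (0.0911) and LFNG (-1.64) with the mean over probes, for LFNG (-2.58) with the background fit on all spots, which changed its brightest probe, and for RBPJ (-0.0055) with median centring, where HES5 (0.32) and HEYL (0.34) were newly called. With 1 array left out, HES5 ranged from -0.0109 to 0.0945 and HEYL from -0.0575 to 0.1214. Over 25 named genes, 459 of 473 alternative values kept direction and side of the threshold. The median of all genes moved to 0.119 with the 75th percentile scaling and 0.139 with median centring. Same-numbered arrays did not deviate together (r = 0.00776 over 26303 probes), and the numbers were not taken as pairs. With the replicate block 6913 genes were higher and 7117 lower, with 2 and 6 Notch genes and 26 and 18 other pathway genes. A lone array left in a group was assumed to vary like the other group. Probes near background, such as HEY2 and HES5, have only limited range.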
